A study of Mus musculus with 12 samples.

Results

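Immediate early genes are transcribed within minutes of a growth factor, cytokine, hormone or stress, from transcription factors that are already present in the cell and without new protein synthesis. Many encode transcription factors that pass the signal on, and others encode phosphatases or RNA-binding proteins that shut it off. In liver they are known for their rapid induction after partial hepatectomy, injury and feeding, and their messengers are short-lived. The 10 genes described here were Jun, Junb, Fos, Atf3, Egr1, Myc, Dusp1, Zfp36, Btg2 and Ier2. They were matched by symbol to 12 probe sets that carry 1 gene symbol each, with 2 probe sets for Jun and 2 for Btg2 and 1 for every other gene. The brightest probe set of each gene was used. All 10 passed the filter on low values, on 12 of 12 arrays, among 13788 genes tested of 18193 measured.

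The livers came from 12 male C57BL6J mice, an inbred laboratory strain, at 30 weeks of age, with 1 array per mouse and 3 mice in each of 4 groups. Control chow mice drank water without antibiotic and ate normal chow with 13.5% of energy as fat. Penicillin chow mice ate the same chow and drank penicillin at 6.7 mg/L, a low dose. Control high-fat and penicillin high-fat mice were moved from that chow at 17 weeks to a diet with 45% of energy as fat, without and with the same penicillin. The age at which penicillin began, and cage, litter, time of day and fasting state at collection, were not given in the sources used here. The hepatocyte markers Alb (14.98 to 15.05) and Apoa1 (14.77 to 14.87, both on the log2 scale) were high on every array. All levels below are log2 expression as the authors deposited it, and a difference of 1 on that scale is a fold of 2. Since whole liver was measured, fewer cells of a type and less RNA per cell cannot be told apart.

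Some array measures moved with the groups or with single mice. The summed level of 13 macrophage markers, as a mean deviation from the 12-array mean, ran from -0.16 to -0.01 in control chow, from -0.84 to -0.21 with penicillin on chow, from 0.33 to 0.46 in control high-fat and from -0.16 to 0.49 in penicillin high-fat mice. Penicillin chow 1 stood apart with an acute-phase score of 1.28, against at most 0.47 on the other arrays. The 18S control signal was 11.76, 11.77 and 11.81 in penicillin chow 2, penicillin chow 3 and penicillin high-fat 2, and at least 12.67 elsewhere. The beta-actin 3′ minus 5′ signal, a measure of RNA quality, lay between 0.94 and 1.13 in chow mice and between 0.92 and 0.99 in high-fat mice. Penicillin high-fat 1 had the lowest clock score, that is Per phase minus Bmal1 phase genes, at -1.60.

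The promoters of the 3 genes that passed a test in the diet comparison are printed here because serum, cAMP and stress signals reach immediate early genes through short elements near their start. Each is the 250 bases before the RefSeq start, 5′ to 3′ on the gene's strand, in GRCm38.p6, and the capitals mark every match on either strand to the motifs named below. Jun lies on the minus strand, and its window is chr4:95052223-95052472. That of Dusp1 is chr17:26508473-26508722 and that of Zfp36 is chr7:28379229-28379478, both also on the minus strand.
Jun: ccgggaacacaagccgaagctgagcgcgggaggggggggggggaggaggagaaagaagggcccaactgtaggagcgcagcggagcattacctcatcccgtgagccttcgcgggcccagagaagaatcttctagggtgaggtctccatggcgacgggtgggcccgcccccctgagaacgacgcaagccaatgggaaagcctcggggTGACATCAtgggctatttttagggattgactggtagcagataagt
Dusp1: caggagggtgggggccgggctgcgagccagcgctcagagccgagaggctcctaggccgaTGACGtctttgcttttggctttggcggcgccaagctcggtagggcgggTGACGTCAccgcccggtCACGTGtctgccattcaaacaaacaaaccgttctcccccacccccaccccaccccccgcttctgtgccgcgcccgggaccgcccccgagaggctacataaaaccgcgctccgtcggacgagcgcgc
Zfp36: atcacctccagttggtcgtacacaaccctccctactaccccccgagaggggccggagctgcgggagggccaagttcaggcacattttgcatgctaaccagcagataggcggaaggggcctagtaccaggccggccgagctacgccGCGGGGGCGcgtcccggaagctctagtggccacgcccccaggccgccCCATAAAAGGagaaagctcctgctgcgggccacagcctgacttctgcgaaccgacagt
The Jun window held the variant AP-1 element TGACATCA, known as a site of JUN and ATF2 dimers, beginning 45 bases before the start. It was present in 2.93% of 32851 RefSeq windows of this length. The Dusp1 window held the full cAMP response element TGACGTCA beginning 143 bases before the start, found in 1.55% of windows, a further copy of its shorter core TGACG (17.77% of windows, full elements included) and the E-box CACGTG (6.02%). The Zfp36 window held a CArG box, the element of serum response factor, beginning 58 bases before the start (1.47% of windows) and the EGR site GCGGGGGCG beginning 105 bases before it (2.57%). The AP-1 site TGACTCA, found in 4.46% of windows, was not among the letters of the 7 members' windows that were matched, those of Atf3, Btg2, Dusp1, Fos, Jun, Junb and Zfp36. Of these, Btg2 also held TGACGTCA, and Atf3, Fos and Junb held TGACG. These matches describe letters in a window, and binding was not measured.

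Of the comparisons between single groups, only that of high-fat diet with chow in penicillin mice gave members past the threshold. Jun, a subunit of the AP-1 transcription factor, rose 2.74-fold, Dusp1, which encodes a phosphatase that switches off MAP kinases, rose 2.57-fold, and Zfp36, which encodes tristetraprolin, a protein that speeds the decay of AU-rich messengers, rose 1.55-fold. These were 3 of the 10 members, all higher, in a comparison that called 8.32% of all genes and 6.43% as higher. The median difference over the 10 members was 0.51, against -0.01 over all genes tested. The other 7 did not pass, with adjusted p from 0.144 to 0.987. An unadjusted p under 0.05 was found for 4 members, Fos being the fourth, and for 24.5% of all genes. Genes called lower, 1.89% of all, held no member.

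Jun stood at 7.96, 7.25 and 7.59 in the 3 penicillin chow mice and at 9.44, 8.73 and 9.0 in the 3 penicillin high-fat mice. Every high-fat value lay above every chow value. The difference was 1.46 ± 0.22 (SE of the fit, n = 3 per group; limma adjusted p = 0.00280). Its second probe set gave 1.15 ± 0.18 (adjusted p = 0.00401 over all probe sets). Dusp1 stood at 9.25, 8.72 and 8.97 on chow and at 10.51, 10.15 and 10.37 on high-fat diet, again without overlap. Its difference was 1.36 ± 0.23 (limma adjusted p = 0.00527). Zfp36 stood at 8.90, 8.80 and 8.92 on chow and at 9.86, 9.40 and 9.25 on high-fat diet. The values did not overlap, and penicillin high-fat 1 was well above the other mice of its group. The difference was 0.63 ± 0.13 (limma adjusted p = 0.0139). Jun, Dusp1 and Zfp36 were the 3 members whose groups did not overlap upward, where 15.6% of all genes did so.

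All 3 passed whichever of the 12 arrays was left out. With the beta-actin signal as a covariate, a setting chosen after the data had been seen, Jun alone passed, at 1.16 (adjusted p = 0.0422). Dusp1 was then 1.22 (adjusted p = 0.0527) and Zfp36 0.53 (adjusted p = 0.120). With the clock score as a covariate Zfp36 was 0.45 (adjusted p = 0.0902), and in a fit of the 6 arrays alone its adjusted p was 0.0773. Without penicillin chow 1, the mouse with the high acute-phase score, 5 members passed instead of 3. The 2 added were Atf3 at 0.71 (adjusted p = 0.0121) and Btg2 at 0.96 (adjusted p = 0.0183), which stood at -0.06 and -0.41 with the beta-actin covariate.

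Markers of some other liver cells moved in the same comparison. Of 13 macrophage markers 13 were positive and 9 passed, with a median of 0.80. Of 10 endothelial markers 3 passed and of 9 stellate and fibroblast markers 4 passed, all higher. Among 5 neutrophil, 6 T and NK cell, 3 B and plasma cell, 3 cholangiocyte and 1 erythroid markers 0 passed. Their medians were -0.18, 0.06, -0.23, -0.02 and -0.05. Of all genes 6.43% were called higher in this comparison. Penicillin high-fat 3 had a macrophage score of -0.16, within the control chow range, and the highest stellate and fibroblast score of the 12 arrays, at 0.42. Jun was 9.0 there, Dusp1 10.37 and Zfp36 9.25, the lowest Zfp36 of its group. The part of these cell types in the 3 differences was not tested.

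In control mice the same diet comparison gave no member past the threshold. With limma, 0 of 10 members passed, where 0.899% of all genes did, and 2 of 10 had an unadjusted p under 0.05, where 15.1% of all genes did. Dusp1 and Jun were the 2. Dusp1 stood at 8.19, 9.23 and 8.57 on chow and at 9.63, 9.94 and 9.52 on high-fat diet, a difference of 1.04 ± 0.23 (limma adjusted p = 0.0599). Jun stood at 7.05, 7.36 and 6.84 on chow and at 8.18, 8.05 and 7.69 on high-fat diet, a difference of 0.89 ± 0.22 (limma adjusted p = 0.0788). Neither gene's groups overlapped. Jun's second probe set gave 0.45 ± 0.18. Zfp36 also did not overlap, at 9.24, 9.16 and 9.24 against 9.48, 9.34 and 9.27, but its difference was only 0.15 ± 0.13, with a 95% interval from -0.13 to 0.44. These were 3 of 10 members not overlapping upward, where 12.4% of all genes did so. Without penicillin chow 1, which lies outside this comparison and enters through the shared spread, Jun (adjusted p = 0.0439) and Dusp1 (adjusted p = 0.0399) passed, and without control chow 2 Dusp1 passed at 1.32 (adjusted p = 0.0153). Over all genes 303 passed without penicillin chow 1 and 44 without control chow 2, against 124 with all 12 arrays. Of the 12 limma fits without 1 array, Jun passed in 1 and Dusp1 in 2, with adjusted p up to 0.270 and 0.202. All 13 macrophage markers were positive here too, with a median of 0.52 and 0 past the threshold (10 with an unadjusted p under 0.05, limma).

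**Figure D1:**
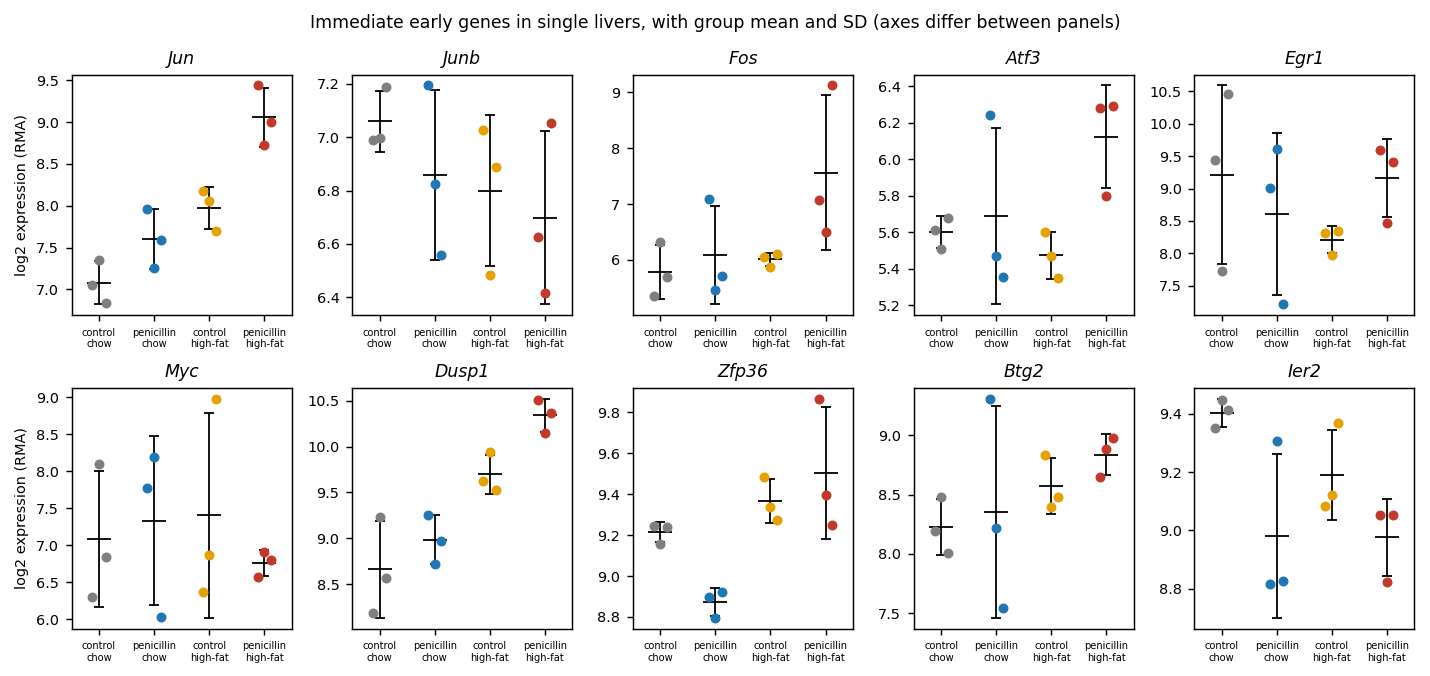
Log2 expression of each gene on the y axis for the 4 groups on the x axis, with 1 point per mouse and the group mean and SD in black (n = 3). The 6 high-fat mice lie above the 6 chow mice for Dusp1 and, by a hair, for Zfp36; Fos, Egr1 and Myc spread most within groups.

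Averaged over control and penicillin mice, high-fat diet raised the same 3 genes and lowered none. Dusp1 rose by 1.20 ± 0.16 (2.29-fold; limma adjusted p = 0.00101), Jun by 1.17 ± 0.15 (2.26-fold; adjusted p = 8.59e-04) and Zfp36 by 0.39 ± 0.09 (1.31-fold; adjusted p = 0.0171). This was 3 of 10 members in a comparison that called 14.5% of all genes, 9.63% as higher and 4.85% as lower. The same 3 members had an unadjusted p under 0.05, as did 30.1% of all genes. The averaged and the single comparisons share their arrays. For Dusp1 the lowest of 6 high-fat mice, at 9.52, lay above the highest of 6 chow mice, at 9.25. For Zfp36 the same held by a narrow margin, with 9.247 against 9.244. For Jun 5 of 6 high-fat mice lay above every chow mouse, and control high-fat 3, at 7.69, lay below penicillin chow 1, at 7.96. Such separation upward of 6 from 6 arrays was seen for 4.35% of all genes and for 2 of the 10 members. The average of Zfp36 is not read as a rise in control mice, where its own difference did not pass. It did not pass with the clock score as a covariate (0.27, adjusted p = 0.0846) or with the beta-actin signal (0.32, adjusted p = 0.138).

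The effect of penicillin was next examined on each diet. On high-fat diet 0 of 10 members passed limma's adjusted threshold, where 0.341% of all genes did, and 4 had an unadjusted p under 0.05, where 10.1% of all genes did. Those 4 were Jun, Atf3, Dusp1 and Fos, all with positive values. The median over the members was 0.46, and over all genes tested it lay near 0. Jun lay closest to the threshold, at 8.18, 8.05 and 7.69 in control and 9.44, 8.73 and 9.0 in penicillin mice, a difference of 1.08 ± 0.22 or 2.11-fold (limma adjusted p = 0.0695). Its second probe set gave 1.05 ± 0.18 and passed in a fit of all probe sets (adjusted p = 0.0415). Atf3, a stress-induced factor of the ATF and CREB family that dimerises with JUN proteins, stood at 5.60, 5.47 and 5.35 in control and at 6.28, 5.80 and 6.29 in penicillin mice. The difference was 0.65 ± 0.20 (limma adjusted p = 0.285). Both genes passed with the 18S signal as a covariate, Jun at 1.22 (adjusted p = 0.00633) and Atf3 at 0.79 (adjusted p = 0.0164), with array weights (adjusted p = 0.0135 and 0.0454) and without penicillin chow 1 (adjusted p = 0.0398 and 0.0499). Without penicillin high-fat 2, a mouse with a low 18S signal, Jun passed at 1.24 (adjusted p = 0.0388). Over all genes 89 passed with the 18S covariate, 183 with array weights, 95 without penicillin chow 1 and 113 without penicillin high-fat 2. In the fit reported here 47 did. Of the 12 limma fits without 1 array, Jun passed in 2 and Atf3 in 1, with adjusted p up to 0.286 and 0.682. With the clock score as a covariate Jun was 0.95 (adjusted p = 0.202).

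Fos, the AP-1 subunit that needs a JUN partner to bind DNA, stood at 6.05, 5.88 and 6.11 in control high-fat and at 7.08, 6.50 and 9.13 in penicillin high-fat mice. The groups did not overlap, but penicillin high-fat 3 stood far above the other mice. The difference was 1.55 ± 0.58 (limma adjusted p = 0.376), and it was 0.77 without penicillin high-fat 3. Dusp1, at 9.63, 9.94 and 9.52 against 10.51, 10.15 and 10.37, differed by 0.65 ± 0.23 (adjusted p = 0.346). Egr1, a zinc finger transcription factor, stood at 8.32, 7.97 and 8.35 against 9.59, 8.48 and 9.41, a difference of 0.95 ± 0.67 (adjusted p = 0.699). In all, the penicillin mice lay above the controls without overlap for 5 of 10 members, Jun, Fos, Atf3, Egr1 and Dusp1, where 9.5% of all genes did so. Ier2, which encodes a nuclear protein induced by growth factors, was the 1 member that lay lower without overlap, at 9.08, 9.12 and 9.37 against 9.05, 8.82 and 9.05, where 7.85% of all genes did so. Of the macrophage markers 12 of 13 were negative here, with a median of -0.17 and 0 past the threshold (0 also at an unadjusted p under 0.05). The clock score was lower in the penicillin mice, from -1.60 to -0.03 against -0.76 to 0.79, and its part in these values was not tested beyond the fit with that score, in which 0 members passed.

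On chow, penicillin gave 0 members past the threshold with limma, where 0.00725% of all genes passed, and 3 with an unadjusted p under 0.05, where 7.62% of all genes had one. Ier2 stood at 9.35, 9.45 and 9.41 in control and at 8.81, 9.31 and 8.82 in penicillin mice, a difference of -0.42 ± 0.13 (adjusted p = 0.527). Zfp36 stood at 9.24, 9.16 and 9.24 against 8.90, 8.80 and 8.92, a difference of -0.34 ± 0.13 (adjusted p = 0.618). Both were lower without overlap, 2 of 10 members where 7.04% of all genes were, and 0 members were higher without overlap, where 4.79% of all genes were. Jun overlapped, at 7.05, 7.36 and 6.84 against 7.96, 7.25 and 7.59, with a difference of 0.52 ± 0.22 (adjusted p = 0.618). The low Zfp36 of penicillin chow mice enters the diet comparison in penicillin mice, where Zfp36 was called. Macrophage markers were lower in these mice, 13 of 13 negative with a median of -0.53 and 0 past the threshold (11 with an unadjusted p under 0.05, limma, where 7.62% of all genes had one), and their part in the values of Ier2 and Zfp36 was not tested.

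**Figure D2:**
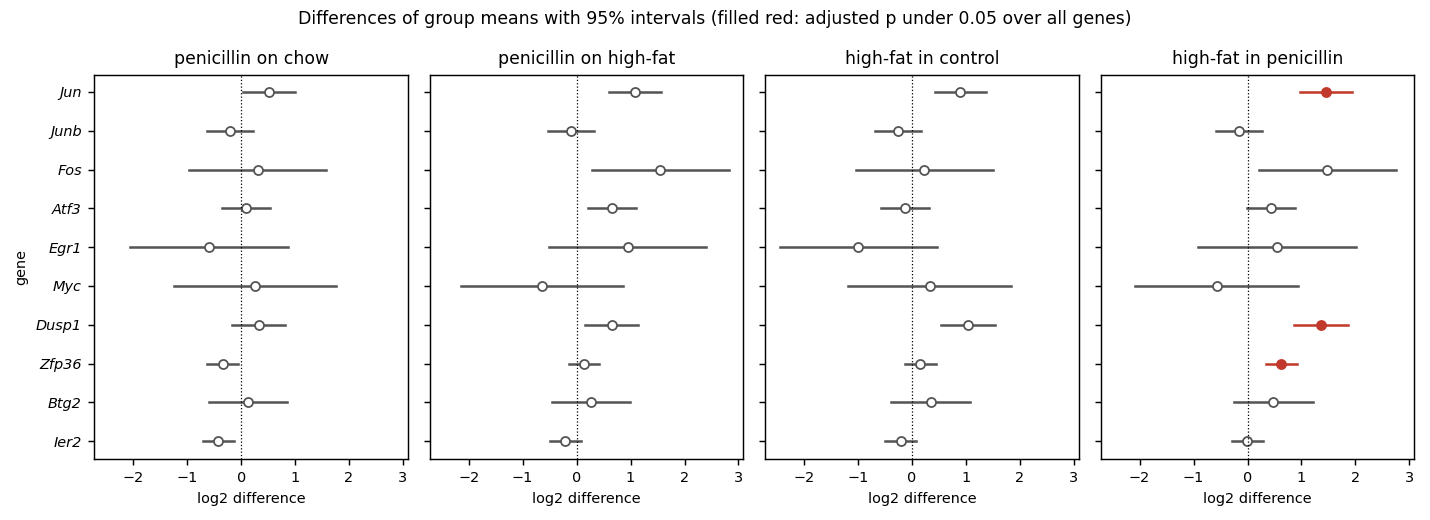
Log2 differences of group means (x axis) with 95% intervals for each gene (y axis) in the 4 comparisons between groups, n = 3 mice per group. The 3 filled points are Jun, Dusp1 and Zfp36 for high-fat diet in penicillin mice; the intervals of Fos, Egr1 and Myc are the widest in every panel.

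Averaged over the diets, 0 of 10 members passed for penicillin, where 0.145% of all genes did, and 5 had an unadjusted p under 0.05, where 11.9% of all genes did. Jun was again the nearest, at 0.80 ± 0.15 or 1.74-fold (limma adjusted p = 0.0771). It passed in 1 of 12 fits without 1 array, at 0.88 (adjusted p = 0.0385). That fit left out penicillin high-fat 2 and called 93 of all genes, against 20 with all 12 arrays. The adjusted p of Jun reached 0.187 in the others. The values of Dusp1, Fos and Atf3 were 0.48 ± 0.16, 0.93 ± 0.41 and 0.37 ± 0.14. Ier2 was the negative one, at -0.32 ± 0.09 (adjusted p = 0.212). The 6 penicillin and 6 control mice overlapped for every member, where 0.232% of all genes lay higher and 0.276% lower without overlap. In the test of the interaction, which asks whether penicillin acted differently on the 2 diets, 0 of 10 members passed, where 0.0435% of all genes did, and 1 had an unadjusted p under 0.05, where 6.11% of all genes had one. That was Zfp36 at 0.48 ± 0.19 (limma adjusted p = 0.748). No penicillin effect on a member was therefore shown to differ between diets, and no diet effect between treatments. For Jun the interaction was 0.56 ± 0.31 with a 95% interval from -0.11 to 1.23, which includes 0 and also 1.

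By group means, Jun ran from control chow (7.08 ± 0.26, SD, n = 3) through penicillin chow (7.60 ± 0.36) and control high-fat (7.97 ± 0.25) to penicillin high-fat mice (9.05 ± 0.36). The first neighbours overlapped and so did the middle pair, and only penicillin high-fat stood clear of the group before it. Dusp1 had the same order, at 8.66 ± 0.53, 8.98 ± 0.27, 9.70 ± 0.22 and 10.34 ± 0.18. Here the 2 chow groups overlapped, and the other neighbours did not. The order for Zfp36 was different: penicillin chow was lowest at 8.87 ± 0.07, then control chow at 9.21 ± 0.05, control high-fat at 9.36 ± 0.11 and penicillin high-fat at 9.50 ± 0.32, and only the last neighbours overlapped. Fos means were 5.78 ± 0.49, 6.01 ± 0.12, 6.09 ± 0.88 and 7.57 ± 1.38 in the mice of the control chow, control high-fat, penicillin chow and, last, penicillin high-fat groups, and penicillin chow overlapped with penicillin high-fat.

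The remaining members showed no difference past the threshold. Junb, an AP-1 subunit that can oppose JUN, stayed between 6.41 and 7.19 on all 12 arrays, and its 4 group means ran from 6.70 to 7.06. Unlike Jun, its diet differences were -0.26 ± 0.19 in control and -0.16 ± 0.19 in penicillin mice, and the 95% interval of the latter, from -0.58 to 0.26, excludes the difference of 1.46 measured for Jun. Btg2, which encodes an antiproliferative adaptor of the deadenylase complex, had positive diet differences of 0.34 ± 0.33 and 0.48 ± 0.33. On chow it ranged from 7.54 in penicillin chow 3 to 9.31 in penicillin chow 1. Without penicillin chow 1, its averaged diet difference was 0.65 and passed (adjusted p = 0.0110). That difference passed in this 1 of 12 limma fits without 1 array, with adjusted p up to 0.476 in the others. Ier2 had diet differences of -0.21 ± 0.13 and -0.01 ± 0.13.

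Egr1 and Myc differed more between mice of a group than between groups. Egr1 stood at 9.45, 7.73 and 10.45 in control chow mice, at 9.01, 9.61 and 7.22 in penicillin chow, at 8.32, 7.97 and 8.35 in control high-fat and at 9.59, 8.48 and 9.41 in penicillin high-fat mice. Its highest and lowest values, a 9.43-fold range, both came from chow. Myc, which encodes a growth-promoting factor that binds DNA with MAX, stood at 6.30, 8.09 and 6.84 in control chow, 7.77, 8.19 and 6.03 in penicillin chow, 6.37, 6.86 and 8.98 in control high-fat and 6.57, 6.90 and 6.80 in penicillin high-fat mice. Its range over the 12 arrays was 7.72-fold. At this spread the 95% interval of the diet difference in penicillin mice ran from -2.08 to 0.93 for Myc and from -0.91 to 2.00 for Egr1, so both include 0 and large differences.

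The members were among the more variable genes between mice of 1 group. The median within-group SD was 0.32 for the 10 members and 0.13 for all genes tested. Myc (1.01), Egr1 (0.98) and Fos (0.86) had larger within-group SDs than 99.7% or more of the tested genes, Btg2 (0.48) than 98.4%, Dusp1 (0.33) than 95.2% and Jun (0.31) than 94.5%. Zfp36 and Ier2 were the steadiest at 0.17 and 0.18, above 75.1% and 75.2% of genes. Fos had the widest range, 13.7-fold, from 5.35 in control chow 1 to 9.13 in penicillin high-fat 3. Jun ranged 6.05-fold and Dusp1 5.0-fold.

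**Figure D3:**
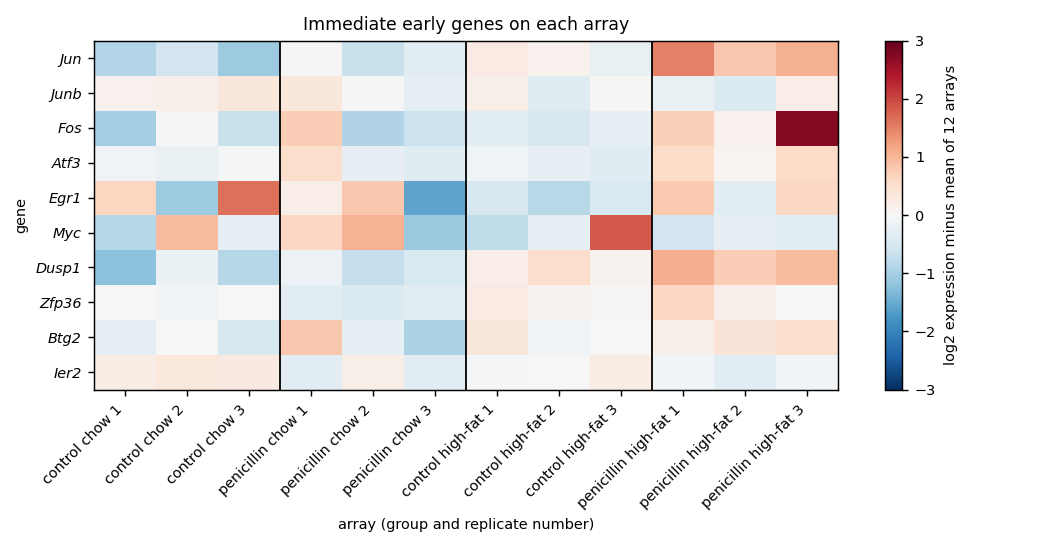
Log2 expression of each gene (rows) on each array (columns) minus its mean over the 12 arrays, on a colour scale from -3 to 3, with lines between the groups. Jun and Dusp1 follow the diet, while Fos is highest in penicillin high-fat 3, Myc in control high-fat 3 and Egr1 in control chow 3.

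The high mice differed from gene to gene. Penicillin chow 1 was the highest of its group for 6 of 10 members: Jun, Junb, Fos, Atf3, Dusp1 and Btg2. In penicillin chow 1 Fos was 7.10 against 5.46 and 5.71, Atf3 was 6.24 against 5.47 and 5.36, and Btg2 was 9.31 against 8.21 and 7.54. Penicillin chow 1 also had a glucocorticoid response score of 1.43, against at most 0.30 on the other arrays, and the acute-phase score given above. In penicillin chow 1 Egr1, Myc, Zfp36 and Ier2 were not the highest of the group. Control chow 2 was likewise the highest of its own group for 6 of 10 members. Control chow 3 had the highest Egr1 of all arrays, 10.45, with Fos at 5.69 and Jun at 6.84, the lowest Jun of all. Control high-fat 3 had the highest Myc, 8.98, with Jun at 7.69 and Egr1 at 8.35. Penicillin high-fat 3 had Fos at 9.13 and Atf3 at 6.29, both the highest of the 12, with Myc at 6.80. Thus no single mouse was high for all members. Penicillin high-fat 2 was the lowest of its group for 7 of 10 members.

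Likeness was measured as Pearson's r, over the 12 arrays, between a gene's deviations from its group means and the mean of the 10 members' scaled deviations, and is given as a description without a test. Emilin1 (r = 0.93), Bcl2l1 (0.93), Lrrc3b (0.93), Plekhj1 (0.91), Smoc1 (0.91), Mitf (0.91), Jund (0.90) and Kctd17 (0.90) were most like that mean, with Spearman's rho from 0.77 to 0.93. Zdhhc9 (-0.96), 3830406C13Rik (-0.95), Poldip3 (-0.93) and Ptrhd1 (-0.93) were most opposed. Of these, Jund, an AP-1 subunit that is expressed without a stimulus in many cells, belongs to the list of other early response genes. It stood at 10.11 in penicillin chow 1 and 10.11 in penicillin high-fat 1, against 9.48 to 10.01 on the other arrays. The arrays share their normalization, and 8 degrees of freedom remain after the group means. The named genes are the extremes of a search through the 13788 tested genes other than the members, so a high r was selected for. The members' own deviations went together only in part. Over their 45 pairs the median r was 0.20, the lowest -0.43 and the highest 0.75, and 11 pairs lay above 0.5. Likeness to their mean is therefore not likeness to each member.

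A list of 44 other immediate early and early response genes, chosen with earlier results of these data known, had 42 tested members. Fosb and Egr2 were not tested, being above the filter on fewer than 3 arrays. Averaged over treatments, 6 of the 42 rose on high-fat diet and 0 fell, beside the 9.63% and 4.85% of all genes called higher and lower. The list's median was 0.14, against -0.01 for all genes. The 6 were Klf10, Ccn2, Zfp36l2, Klf6, Rhob and Zfp36l1. Klf10, a TGF beta inducible zinc finger factor, rose by 1.19 ± 0.10 (2.28-fold; limma adjusted p = 8.50e-05) and passed in control mice (1.14 ± 0.14, adjusted p = 0.00598) as well as in penicillin mice (1.24 ± 0.14, adjusted p = 7.21e-04). Its highest chow value was 8.14 and its lowest high-fat value 8.70. Ccn2, a matricellular growth factor, rose by 1.19 ± 0.24 and the transcription factor Klf6 by 0.69 ± 0.18.

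Both measured relatives of Zfp36 rose with it on the averaged comparison. Zfp36l2 rose by 0.61 ± 0.10 (limma adjusted p = 0.00281) and Zfp36l1 by 0.44 ± 0.11 (adjusted p = 0.0215), which like Zfp36 encode proteins that promote decay of AU-rich messengers. In penicillin mice alone, Zfp36l2 rose by 0.70 ± 0.14 and Zfp36l1 by 0.57 ± 0.16. In control mice they stood at 0.52 ± 0.14 and 0.31 ± 0.16 and did not pass (adjusted p = 0.107 and 0.382). The small GTPase gene Rhob rose by 0.52 ± 0.11 on average. Some genes often induced together with Fos and Egr1 did not pass, among them Nr4a1 at -0.17, Ier3 at -0.12, Socs3 at -0.24, Ppp1r15a at -0.10 and Ccn1 at 0.08. These examples were named after their values were seen. Of the 42 genes, 26 were positive and 16 negative in the averaged diet comparison. For penicillin on either diet, 0 of the 42 passed with limma. On chow 2 and on high-fat diet 3 had an unadjusted p under 0.05, where 7.62% and 10.1% of all genes had one. Dusp4 at 0.28 ± 0.11 and Hes1 at -0.63 ± 0.25 had the smallest p on chow, and Dusp2 at 0.33 ± 0.11 and Jund at 0.36 ± 0.13 on high-fat diet. Averaged over diets Jund was at 0.29 ± 0.09 and Dusp2 at 0.25 ± 0.08. In the interaction Dusp4 was at -0.28 ± 0.15 and Fosl2 at -0.45 ± 0.26. There were 0 calls in either. With limma, 4 and 0 of the 42 had an unadjusted p under 0.05, where 11.9% and 6.11% of all genes had one.

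**Figure D4:**
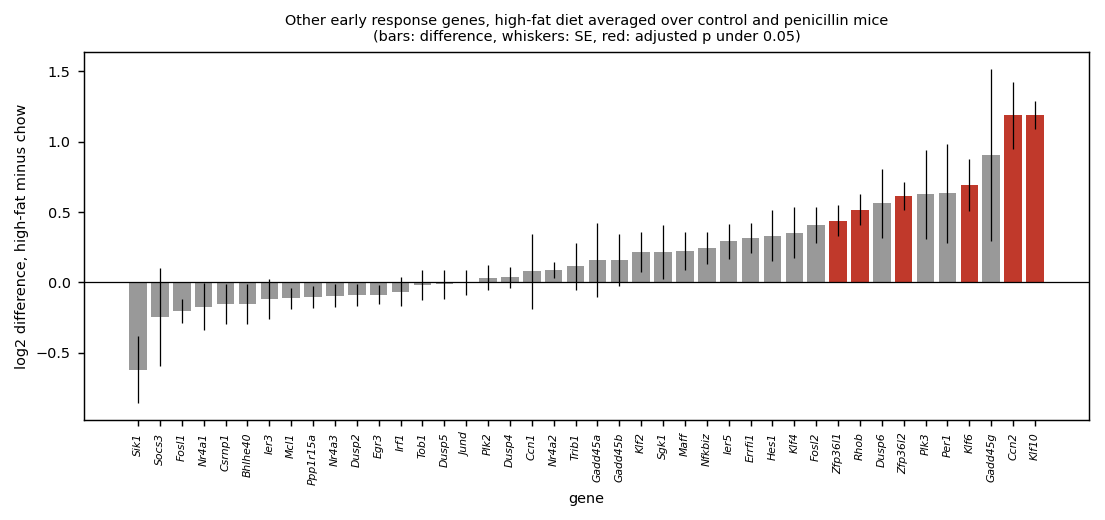
Log2 difference of high-fat minus chow, averaged over control and penicillin mice, for the 42 tested genes of the list (x axis), as bars with the SE of the fit. The 6 red bars, from Zfp36l1 at 0.44 to Klf10 at 1.19, passed at an adjusted p under 0.05; Gadd45g at 0.91 did not, with a wide error.

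Among 19 tested kinases and factors that regulate immediate early genes, 4 were higher and 2 lower on the averaged diet comparison, where 9.63% of all genes were called higher and 4.85% lower. Elk3, an ETS factor that binds serum response elements with SRF, rose by 0.50 ± 0.06, Crem by 0.63 ± 0.16, the JNK gene Mapk9 by 0.38 ± 0.09 and the SRF coactivator gene Mrtfb by 0.27 ± 0.06. Elk4, a further ETS partner of SRF, fell by 0.25 ± 0.05 and the JNK gene Mapk8 by 0.17 ± 0.05. Elk3 rose by 0.77 ± 0.08 in penicillin mice and stood at 0.23 ± 0.08 in control mice (adjusted p = 0.240). Among 16 tested dimer partners of the AP-1, ATF and MYC families, 4 were higher and 2 lower, beside the same shares of all genes. Atf5 rose by 0.92 ± 0.13, Jdp2, which encodes a JUN dimerisation protein, by 0.93 ± 0.17, Atf6 by 0.34 ± 0.07 and Maf by 0.31 ± 0.06, while Atf4 fell by 0.27 ± 0.07 and the MAX partner Mnt by 0.31 ± 0.10. In penicillin mice alone, Elk3, Mapk9 (0.55 ± 0.12), Mrtfb (0.40 ± 0.09), Atf5 (0.91 ± 0.18), Maf (0.39 ± 0.09) and Jdp2 (0.87 ± 0.24) rose and Elk4 fell by 0.27 ± 0.07. Of all genes 6.43% were called higher there and 1.89% lower. In control mice Atf5 alone of both lists passed, at 0.92 ± 0.18 (limma adjusted p = 0.0449), where 0.899% of all genes passed. Atf6 at 0.45 ± 0.10, Elk4 at -0.23 ± 0.07 and Mapk8 at -0.18 ± 0.07 were next by p. For penicillin on either diet, 0 genes of both lists passed with limma, and 4 on chow and 5 on high-fat diet had an unadjusted p under 0.05, where 7.62% and 10.1% of all genes had one. The smallest p on chow belonged to Elk3 (-0.39 ± 0.08) and Creb1 (0.26 ± 0.11) among the regulators and to Atf6 (0.28 ± 0.10) and Mafg (-0.40 ± 0.16) among the partners. On high-fat diet they belonged to Mrtfb (0.29 ± 0.09), Map3k5 (-0.44 ± 0.16), Mxd1 (-0.18 ± 0.13) and Mnt (-0.16 ± 0.13). Averaged over diets they belonged to Crem (0.46 ± 0.16), Mrtfb (0.16 ± 0.06), Atf6 (0.17 ± 0.07) and Mafg (-0.20 ± 0.11). The interaction also gave 0 calls, where 0.0435% of all genes were called. In it 3 genes had an unadjusted p under 0.05, where 6.11% of all genes had one. The smallest p there belonged to Elk3 (0.55 ± 0.12, limma adjusted p = 0.230), Map3k5 (-0.79 ± 0.23), Mxd1 (-0.40 ± 0.18) and Batf3 (-0.27 ± 0.14).

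Heat shock genes and glucocorticoid response genes were counted beside these results. Of 10 heat shock genes tested, 3 rose on the averaged comparison, Hspa1b by 1.66 ± 0.35, Dnajb1 by 0.77 ± 0.19 and Hsph1 by 0.71 ± 0.16. Of 10 glucocorticoid response genes 1 rose, Fkbp5 by 0.66 ± 0.19. Of all genes tested 9.63% were called higher in this comparison, which is near the share of the glucocorticoid list. In penicillin mice, where the 3 members were called, 0 of 10 heat shock and 0 of 10 glucocorticoid genes passed, where 8.32% of all genes did. The heat shock median was 0.11 there and 0.69 in control mice, where 1 of the 10 passed beside 0.899% of all genes. The glucocorticoid medians were 0.10 in penicillin and 0.64 in control mice, with 0 past the threshold in either. Both lists' part in the values of Jun, Dusp1 and Zfp36 was not tested.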

How the data were processed

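Per the submitters' processing notes, the authors made the table with RMA in the affy package, whose version is not given in the sources used here; it holds deposited log2 values for 45101 probe sets, 1 column per mouse, with array medians from 5.52 to 5.59. RMA sets the arrays to a common distribution of probe signals, so differences are relative to the bulk of genes. GEO's platform annotation gave 34945 probe sets 1 symbol, 932 several and 9160 none, and 64 were controls. Per gene the probe set with the highest mean was kept, and genes above the 40th percentile (log2 4.999) on at least 3 arrays were tested.

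Differences were tested with limma 3.58.1 in R 4.3.3 (4 group means, 12 arrays, 8 residual degrees of freedom, Benjamini-Hochberg over 13788 genes, adjusted p under 0.05) and tested on simulated data. The labels call the mice biological replicates, and p-values measure the spread between them. The number of arrays limits the precision, with a median SE of 0.10. The members, lists and motifs were chosen with earlier results of these data known. All members are named; of other lists, genes past the threshold (at most 6, by p) and the 2 of smallest p. Genes of the early response list that did not pass in the averaged diet comparison, heat shock genes and Fkbp5 were named after their values were seen. Promoters are RefSeq's. Deviations of same-numbered mice of different groups had correlations from -0.23 to 0.17 over genes, and the number was not used as a pairing. What the number stands for is not given, and these correlations cannot settle it.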

Additional observations from a re-analysis of the deposited data

How the results depend on the processing

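The number of members past the threshold changed in 5 comparisons and was 0 under every setting for penicillin on chow and for the interaction. For penicillin on high-fat diet it was 0, and it was 1 with the mean of a gene's probe sets, 1 with all probe sets, 2 with array weights, 2 with the 18S covariate and 1 at an adjusted p under 0.1. Over all genes 47 passed as reported, and 55, 45, 183, 89 and 118 under these settings in turn. For high-fat diet in control mice it was 0, and it was 2 with array weights, 1 with the 18S covariate and 2 at an adjusted p under 0.1. All genes gave 124 as reported, and 571, 156 and 386 in turn. For high-fat diet in penicillin mice it was 3, and it was 5 with array weights (Fos and Atf3 added), 2 in a fit of the 6 arrays alone and 2 with the clock covariate (Zfp36 lost in both), and 1 with the beta-actin covariate, chosen after the data had been seen. All genes gave 1147 as reported, and 1628, 482, 458 and 854 in turn. For penicillin averaged over diets it was 0, and it was 1 with array weights, 2 with the 18S covariate, 1 at an adjusted p under 0.1 and 1 with the beta-actin covariate. All genes gave 20 as reported, and 108, 179, 65 and 48 in turn. For high-fat diet averaged over treatments it was 3, and it was 2 with the clock and 2 with the beta-actin covariate (Zfp36 lost in both). All genes gave 1997 as reported, and 1015 and 1232 in turn. Leaving out single arrays gave 0 to 2, 0 to 2, 3 to 5, 0 to 1 and 3 to 4 in these comparisons, the 4 without penicillin chow 1 (Btg2 added). The cause was not tested. With the replicate number as a block the counts were 0, 0, 3 and 0, and 3 for high-fat diet averaged over treatments, so the block changed no count of members. Over all genes it gave 1720 for that comparison (1997 as reported) and 2 for penicillin averaged over diets (20 as reported). Of 18 same-numbered pairs 3 had a correlation above 0.1, which does not settle whether the number pairs the mice.

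No value past the threshold changed sign in any of 26 settings, but 60 values that did not pass did, in 26 of 70 results. With the beta-actin covariate the diet difference in penicillin mice was -0.064 for Atf3, -0.41 for Btg2, -0.15 for Egr1 and 0.15 for Ier2, the averaged diet difference -0.18 for Atf3 and -0.18 for Btg2, and the interaction -0.46 for Btg2 and -0.13 for Junb. With the 18S covariate the interaction was -0.10 for Btg2 and -0.069 for Junb, the diet difference in penicillin mice 0.017 for Ier2, and the penicillin difference of Junb 0.081 on chow, 0.011 on high-fat diet and 0.046 averaged. With the clock covariate the diet difference in penicillin mice was -0.30 for Egr1 and 0.011 for Myc, the averaged one 0.25 for Myc, and the averaged penicillin difference -0.089 for Egr1. With array weights the penicillin difference on chow was -0.090 for Atf3, -0.30 for Btg2 and -0.18 for Myc, that on high-fat diet 0.062 for Junb, the diet difference in penicillin mice 0.037 for Ier2 and 0.046 for Junb, and the averaged one 0.11 for Egr1 and 0.0057 for Myc. With median centring Ier2 was 0.014 for diet in penicillin mice. Over the fits without 1 array, the penicillin difference on chow ran from -0.19 to 0.25 for Atf3, -0.35 to 0.53 for Btg2, -1.34 to 0.10 for Egr1, -0.20 to 0.62 for Fos and -0.18 to 0.90 for Myc. That on high-fat diet ran from -0.28 to 0.041 for Junb, -1.16 to 0.14 for Myc and -0.044 to 0.27 for Zfp36, and the averaged one from -0.042 to 0.40 for Btg2, -0.20 to 0.52 for Egr1 and -0.45 to 0.20 for Myc. The diet difference ran from -0.46 to 0.84 for Myc in control mice, from -0.15 to 1.05 for Egr1, -0.089 to 0.16 for Ier2 and -0.34 to 0.0073 for Junb in penicillin mice, and from -0.60 to 0.084 for Egr1 and -0.52 to 0.13 for Myc averaged. The interaction ran from -0.27 to 0.61 for Btg2 and -0.077 to 0.27 for Junb.

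The number of all genes past the threshold varied widely over the settings, fits without 1 array included, from 458 to 1933 for high-fat diet in penicillin mice (1147 as reported), from 1015 to 3050 for it averaged (1997), from 21 to 571 in control mice (124), from 21 to 183 for penicillin on high-fat diet (47), from 0 to 11 on chow (1), from 2 to 179 averaged (20) and from 0 to 15 for the interaction (6). With 3 mice per group, Fos, Egr1 and Myc, whose within-group SD was 0.86 or more, were the members measured with least precision.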
